A study of Rattus norvegicus with 12 samples.

Results

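MiR-21, miR-132, miR-221 and miR-222 are microRNAs (miRs) known to respond when a peripheral nerve is cut and when axons regrow. The 4 were sought by assay name (mmu-miR-21, mmu-miR-132, mmu-miR-221 and mmu-miR-222) in the table of cycle values of a TaqMan rodent microRNA card run on rat dorsal root ganglia (DRG). MiR-132 and miR-222 are the 2 described, out of 154 miRs in all, and miR-21 and miR-221 were not analysed here. The rule used the names alone and no measured value, but it was set with earlier results of these data known.

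The data are 12 arrays, each of 1 DRG taken at Day 23 after surgery from adult male Sprague-Dawley rats. In Sural-SNI, a spared nerve injury of the sciatic nerve, the tibial and common peroneal branches were tied and severed and the sural branch was left whole. In Tibial-SNI the sural and common peroneal branches were severed and the tibial branch was left whole. In Sham the nerve was laid bare and nothing was tied or cut. Each of the 3 surgery groups has 4 arrays, of which 2 are of L3-DRG and 2 of L4-DRG, with the replicate numbers 1 and 2 at each level. All groups share the anesthesia, the exposure of the nerve and the day of collection. A ganglion was taken whole, so that neurons and non-neuronal cells entered the same RNA. With a tracer placed on the cut branches, the study saw injured neurons in L4-DRG and L5-DRG of both SNI models. It saw none in L3-DRG, and a larger proportion in Sural-SNI than in Tibial-SNI. In L4-DRG of the SNI groups, neurons with cut and with spared axons were thus measured together. In such bulk samples fewer cells of a type and less RNA per cell cannot be told apart.

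A miR guides a silencing complex to messenger RNAs that pair with its seed, the bases 2 to 8 of the mature strand, and lowers the protein made from them. MiR-132 is induced in neurons by the activity-dependent factor CREB and favors the growth of neurites. MiR-222 and its neighbor miR-221 restrain the cell cycle inhibitor p27Kip1. MiR-21 represses Sprouty2 and rises in axotomized sensory neurons.

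The mature strands of both measured miRs are printed with the partner that shares their seed, since a miR and its partner are expected to bind overlapping sets of messages. The sequences are the rat strands of RefSeq (build GRCr8), 5′ to 3′, with the seed in capitals. The assay names give no arm, and the 3p strand, which the older naming called by the bare number, is shown.
rno-miR-132-3p: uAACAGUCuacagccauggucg
rno-miR-212-3p: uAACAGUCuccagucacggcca
rno-miR-222-3p: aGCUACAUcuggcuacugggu
rno-miR-221-3p: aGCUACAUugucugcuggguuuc

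Both pairs are neighbors in the genome. MiR-132-3p lies on the plus strand at chr10:60522091-60522112, and miR-212-3p lies 258 bases upstream at chr10:60521811-60521832. The miR-132 hairpin overlapped no other RefSeq gene model. MiR-222-3p lies on the plus strand at chrX:6022682-6022702 and miR-221-3p at chrX:6023246-6023268, 543 bases apart, and their hairpins lie within the spans of the same pair of long non-coding RNA gene models, LOC120099382 and LOC120099384. Of the 693 mature strands in the reference table, miR-212-3p was the only one with the seed of miR-132-3p, and miR-221-3p the only one with the seed of miR-222-3p. MiR-132-3p and miR-212-3p have the same base at 17 of 22 positions counted from the 5′ end, and miR-222-3p and miR-221-3p at 11 of 21. Neither partner was analysed here, so that no other miR described from these arrays carries the seed of miR-132 or of miR-222.

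The card measured the cycle at which a well crosses the detection threshold (Ct), so that a low Ct is a high level and 1 cycle is close to a doubling. MiR-222 had a Ct of 24.28 to 27.96 over the 12 arrays, and miR-132 one of 26.05 to 34.58. Levels are given from here on as −ΔCt, on a log2 scale, the mean Ct of the reference assays MammU6, snoRNA135 and U87 minus the Ct of the miR. The values of miR-222 and miR-132 are not set against each other, since the assays differ in efficiency.

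MiR-222 was higher in the SNI groups than in Sham at both levels and for both replicate numbers. In Sham its −ΔCt was −1.75 and −1.41 in L3-DRG and −1.65 and −1.03 in L4-DRG, for replicates 1 and 2. In Sural-SNI it was −1.31 and −0.75 in L3-DRG and −1.22 and −0.37 in L4-DRG. In Tibial-SNI it was −0.92 and −0.79 in L3-DRG and −1.06 and −0.36 in L4-DRG. The groups overlapped, because replicate 2 of L4-DRG Sham was above 3 SNI arrays of replicate 1, but each SNI array was above the Sham array of its own level and number. The order of the means was Sham (−1.46 ± 0.32, SD, n = 4), Sural-SNI (−0.91 ± 0.44) and Tibial-SNI (−0.78 ± 0.30), and neither Sham and Sural-SNI nor Sural-SNI and Tibial-SNI differed past an adjusted p of 0.05.

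MiR-132 had a wide spread in every group. In Sham its −ΔCt was −8.37 and −2.12 in L3-DRG and −7.58 and −1.91 in L4-DRG, for replicates 1 and 2. In Sural-SNI it was −7.04 and −1.54 in L3-DRG and −5.94 and −2.23 in L4-DRG. In Tibial-SNI it was −5.21 and −1.89 in L3-DRG and −5.76 and −1.65 in L4-DRG. All 6 arrays of replicate 1 were below all 6 of replicate 2, whatever the surgery. Within replicate 1 every SNI array was above both Sham arrays, whereas within replicate 2 the groups overlapped. The means were −5.00 ± 3.46 in Sham, −4.19 ± 2.71 in Sural-SNI and −3.63 ± 2.16 in Tibial-SNI (SD, n = 4), and no neighbors in this order differed beyond that spread.

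**Figure D1:**
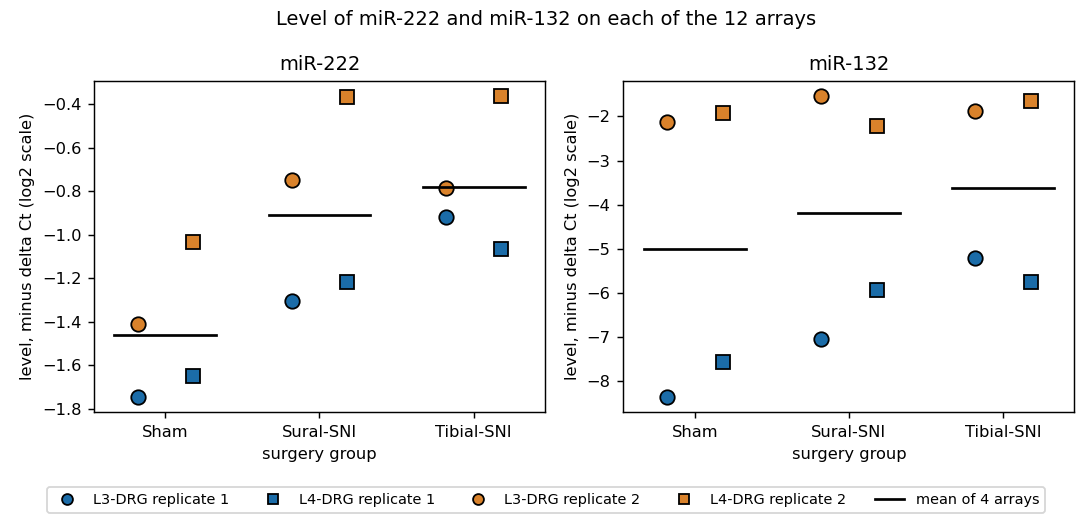
Level of miR-222 (left) and miR-132 (right) as −ΔCt on a log2 scale, by surgery group; each point is 1 array, circles are L3-DRG, squares L4-DRG, blue replicate 1, orange replicate 2, and bars are means of 4 arrays. For miR-132 the orange points lie between −2.23 and −1.54 in all groups and the blue points between −8.37 and −5.21.

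The gap between the replicate numbers is present in the raw Ct. For miR-132 the Ct ran from 30.8 to 34.6 over the 6 arrays of replicate 1 and from 26.1 to 26.9 over the 6 of replicate 2. Its mean gap of 6.29 cycles was the largest of the 154 miRs, whose median was 2.05, and 148 miRs had a higher mean Ct in replicate 1. MiR-222 had a gap of 2.06 cycles, near that median. The reference assays did not share 1 gap, with −0.86 cycles for MammU6, 1.52 for U87 and 3.94 for snoRNA135. The sources used here do not say what a replicate number stands for, and its part in the levels of miR-132 was not tested.

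**Figure D2:**
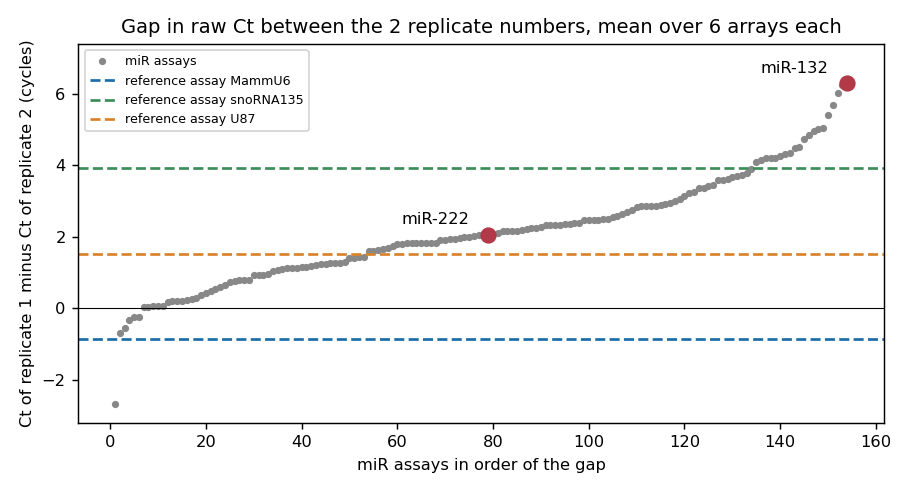
Mean Ct of the 6 arrays of replicate 1 minus that of the 6 arrays of replicate 2, in cycles, for each of the 154 miRs in order of the gap; red points are miR-222 and miR-132 and dashed lines the reference assays. MiR-132 is at the top with 6.29 cycles, and miR-222 lies near the middle with 2.06.

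To ask whether the injury itself goes with a different level, both SNI groups were first compared together with Sham. Each SNI array was set against the Sham array of the same level and replicate number, which gives a log2(fold change); a Sural-SNI and a Tibial-SNI array of the same level and number share that Sham array. For miR-222 the log2(fold change) in Sural-SNI was 0.44 and 0.66 in L3-DRG and 0.43 and 0.66 in L4-DRG, for replicates 1 and 2. In Tibial-SNI it was 0.83 and 0.62 in L3-DRG and 0.58 and 0.67 in L4-DRG. All 8 values were thus above 0, within 0.43 to 0.83, as in 3.9% of the 154 miRs. With another reference 1 of the 8 fell below 0 in 2 cases, an L4-DRG array at −0.11 with MammU6 alone and an L3-DRG array at −0.0089 with the mean of all miRs.

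For miR-132 the log2(fold change) in Sural-SNI was 1.33 and 0.59 in L3-DRG and 1.65 and −0.31 in L4-DRG, for replicates 1 and 2. In Tibial-SNI it was 3.17 and 0.24 in L3-DRG and 1.82 and 0.27 in L4-DRG. The 4 values of replicate 1 were all larger than the 4 of replicate 2, and 7 of the 8 were above 0; 14.9% of the 154 miRs had at least 7 above 0.

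**Figure D3:**
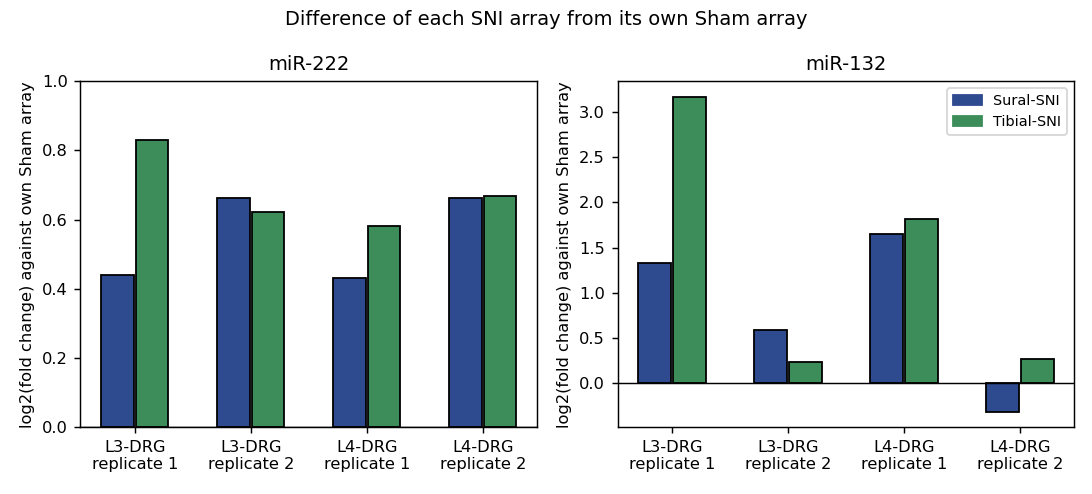
Difference of each SNI array from the Sham array of its own DRG level and replicate number, as log2(fold change), for miR-222 (left, axis to 1) and miR-132 (right, axis to above 3); blue bars are Sural-SNI and green bars Tibial-SNI. The 8 bars of miR-222 lie between 0.43 and 0.83, while those of miR-132 run from −0.31 to 3.17 and are tallest in replicate 1.

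In a limma fit of the 12 arrays that allowed for DRG level, miR-222 was higher in the SNI groups by 0.61 ± 0.27 (SE; 95% confidence interval 0.0066 to 1.22), a 1.53-fold difference. Its adjusted p over the 154 miRs was 0.995, so that it did not pass. No miR passed the adjusted threshold in this comparison (0% called), and 1.3% were higher at an unadjusted p under 0.05, miR-222 among them. With the replicate block, in which arrays of 1 level and number are compared among themselves, the SE fell to 0.15, the interval was 0.27 to 0.95 and the adjusted p 0.441, with miR-222 first of the 154 miRs in order of p. The exact permutation test over all 225 ways to place the Sham label within the levels gave a two-sided p of 0.0311, unadjusted for the 12 tests of this kind (2 miRs in 6 comparisons).

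MiR-132 was higher in the SNI groups by 1.09 ± 1.63 (SE; 95% confidence interval −2.52 to 4.70), a 2.13-fold difference in the mean, with an adjusted p of 0.995 in limma. The exact permutation p was 0.538. With the replicate block the interval narrowed to 0.14 to 2.04 and the adjusted p was 0.675. In that fit 5.19% of the miRs, miR-132 and miR-222 among them, were higher at an unadjusted threshold of 0.05. Within replicate 1 the difference was 1.99, and within replicate 2 it was 0.19. For miR-222 the corresponding values were 0.57 and 0.65. Leaving out the array with the lowest level of miR-132, L3-DRG Sham replicate 1, turned its difference to −0.14 without the block and left it at 0.71 ± 0.43 (SE) with the block.

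These differences stand on a general offset. The median difference of all 154 miRs between the SNI groups and Sham was 0.21, and 121 of them were above 0. Set against the mean of all miRs of each array in place of the 3 reference assays, which brought that median to 0.014, the difference was 0.42 ± 0.19 for miR-222 and 0.90 ± 1.44 for miR-132 (SE), with SEs of 0.15 and 0.38 in the fit with the replicate block and adjusted p-values of 0.909 and 0.918 there. Both kept a positive sign with each reference assay alone, within 0.57 to 0.66 for miR-222 and 1.05 to 1.14 for miR-132. With MammU6, snoRNA135 and U87 alone the SE of miR-222 was 1.09, 0.72 and 0.30, and that of miR-132 2.26, 0.92 and 1.62. With the replicate block these SEs were 0.25, 0.27 and 0.18 for miR-222 and 0.45, 0.45 and 0.40 for miR-132.

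In each SNI group by itself, with the same 4 Sham arrays in both comparisons, miR-222 was higher than in Sham by 0.55 ± 0.32 in Sural-SNI (SE; exact permutation p = 0.167) and by 0.68 ± 0.32 in Tibial-SNI (exact permutation p = 0.111). With the replicate block the intervals were 0.16 to 0.94 and 0.28 to 1.07, and the adjusted p-values in limma 0.666 and 0.290. MiR-132 was higher by 0.81 ± 1.88 in Sural-SNI (exact permutation p = 0.611) and by 1.37 ± 1.88 in Tibial-SNI (exact permutation p = 0.556), and with the replicate block the intervals were −0.28 to 1.91 and 0.28 to 2.47, with adjusted p-values of 0.895 and 0.410. The permutation tests of 1 SNI group against Sham have 36 arrangements each, so that none could give a p under 0.05, whatever the data. No miR passed the adjusted threshold of limma against Sham in either SNI group (0%), with or without the block. In the blocked fit 5.84% of the miRs were higher in Sural-SNI at an unadjusted threshold of 0.05, miR-222 among them, and 8.44% in Tibial-SNI, both miRs among them.

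Leaving out 1 array turned the difference of miR-132 in Sural-SNI below 0 in 3 cases without the block, to −0.42 without L3-DRG Sham replicate 1, to −0.22 without L3-DRG Sural-SNI replicate 2 and to −0.19 without L4-DRG Sham replicate 1. With the block it stayed at 0.43 to 1.18. In Tibial-SNI it stayed above 0 in all 12 such fits, at 0.14 to 2.49 without the block. For miR-222 it stayed within 0.38 to 0.70 in Sural-SNI and 0.56 to 0.82 in Tibial-SNI.

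The study set the injury with lasting pain, Sural-SNI, against the one with recovery, Tibial-SNI, where that recovery was partial at Day 23. MiR-222 differed between them by 0.13 ± 0.23 (Tibial-SNI minus Sural-SNI, SE), with a 95% confidence interval of −0.40 to 0.65 and an adjusted p of 0.995 in limma. Tibial-SNI was above Sural-SNI in 3 of the 4 pairs of 1 level and number, L3-DRG of replicate 2 being the exception. The sign turned with MammU6 as the only reference, to −0.027, and the difference was 0.27 within replicate 1 and −0.016 within replicate 2.

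MiR-132 differed by 0.56 ± 0.73, with an interval of −1.09 to 2.21 and an adjusted p of 0.995. It too was higher in Tibial-SNI in 3 of 4 pairs, again with L3-DRG of replicate 2 as the exception. The difference was 1.00 within replicate 1 and 0.12 within replicate 2, and without L3-DRG Tibial-SNI replicate 1, which holds its largest log2(fold change), it was −0.038. The exact permutation p over 70 splits was 0.229 for miR-222 and 0.514 for miR-132. Of all 154 miRs, 0.649% passed the adjusted threshold of limma, a single miR that was neither of these, and 0% passed with the replicate block or when any 1 array was left out. All 4 stromal marker miRs were above 0 in this comparison (median 0.66), beside 93 of all 154 miRs with a median of 0.10. So were all 4 assays of skeletal muscle miRs, which cover 3 miRs (median 1.23). Among them miR-143, miR-145, miR-133b and miR-1 were reported by the study from these same arrays as higher in Tibial-SNI. Their sign is therefore no separate result. The part of stromal and muscle cells in the values of miR-222 and miR-132 was not tested. With the replicate block the intervals were −0.34 to 0.60 for miR-222 and −0.41 to 1.53 for miR-132. With and without the block they leave room for a difference of either sign.

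**Figure D4:**
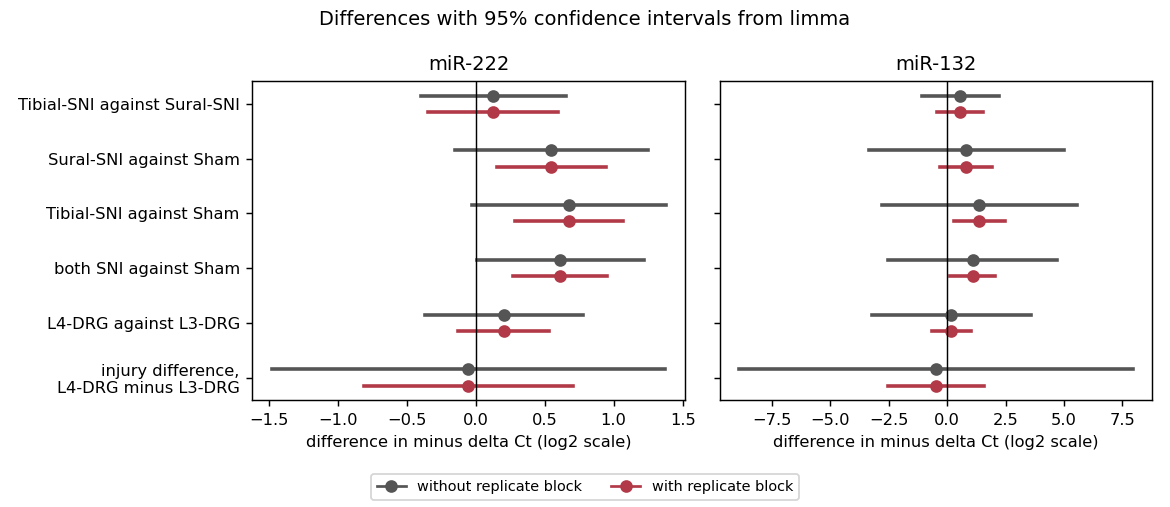
Differences in −ΔCt (log2 scale) of miR-222 (left) and miR-132 (right, wider axis) in the 6 comparisons, with 95% confidence intervals from limma, without (grey) and with (red) the replicate block. Between levels and in the interaction the block is the replicate number alone. For miR-222 the red intervals of the 3 comparisons with Sham lie above 0, and for miR-132 those of Tibial-SNI and of both SNI groups do.

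The sensory axons of the sciatic nerve come mostly from neurons of L4-DRG and L5-DRG, and those of the saphenous nerve, which was not cut, from L3-DRG, so the levels on these arrays, L3-DRG and L4-DRG, were compared next. Averaged over the surgery groups, miR-222 was higher in L4-DRG than in L3-DRG by 0.20 ± 0.26 (SE; 95% confidence interval −0.37 to 0.77, exact permutation p = 0.352), and in 5 of the 6 pairs of 1 surgery and number. MiR-132 was higher by 0.18 ± 1.53 (interval −3.22 to 3.59, exact permutation p = 0.861), in 4 of 6 pairs, and within replicate 2 alone the difference was −0.080. No miR passed the adjusted threshold of limma between the levels (0%), and 1.95% had an unadjusted p under 0.05, neither of these among them.

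The injury difference of miR-222 was 0.64 in L3-DRG and 0.59 in L4-DRG. That of miR-132 was 1.33 in L3-DRG and 0.86 in L4-DRG. Tested as an interaction, the injury difference in L4-DRG minus that in L3-DRG was −0.052 ± 0.62 for miR-222 (interval −1.47 to 1.37, exact permutation p = 0.951) and −0.47 ± 3.66 for miR-132 (interval −8.89 to 7.94, exact permutation p = 0.893), beside a median of −0.43 over all miRs. With the replicate block, here the replicate number alone, the intervals were −0.81 to 0.70 and −2.54 to 1.59. The order of the levels for miR-222 depended on the reference. Against the mean of all miRs its injury difference was 0.24 in L3-DRG and 0.59 in L4-DRG (interaction 0.35 ± 0.42, SE), and against snoRNA135 alone 0.51 and 0.64. It was above 0 at both levels with every reference tried, and a difference between the levels as large as the injury difference itself lies inside the intervals of the 3 reference assays. For miR-132 the values against the mean of all miRs were 0.93 and 0.86.

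Other miRs linked to axon growth showed smaller differences for the most part. Of a list of 17, 14 were analysed here. In the comparison of both SNI groups with Sham 13 of the 14 were above 0, beside 121 of all 154 miRs. The median of the 14 was 0.17, beside 0.21 over all miRs. None passed the adjusted threshold of limma (0% of all miRs), and none was past an unadjusted threshold of 0.05 either, in the fit with the block (5.19% of all miRs) or without it. Among the miRs reported to promote axon growth 6 of 7 were above 0, led by miR-19a of the miR-17-92 cluster with 0.65 ± 0.29 (SE, replicate block), and miR-210, which responds to low oxygen, was at −0.050 ± 0.25. Among those reported to restrain it all 7 were above 0, led by let-7a, a regulator of growth and differentiation, with 0.44 ± 0.30. MiR-132 had a larger difference than any of the 14, and miR-222 than all but miR-19a, with no test between miRs. For miR-132 that difference was 1.99 within replicate 1 and 0.19 within replicate 2.

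**Figure D5:**
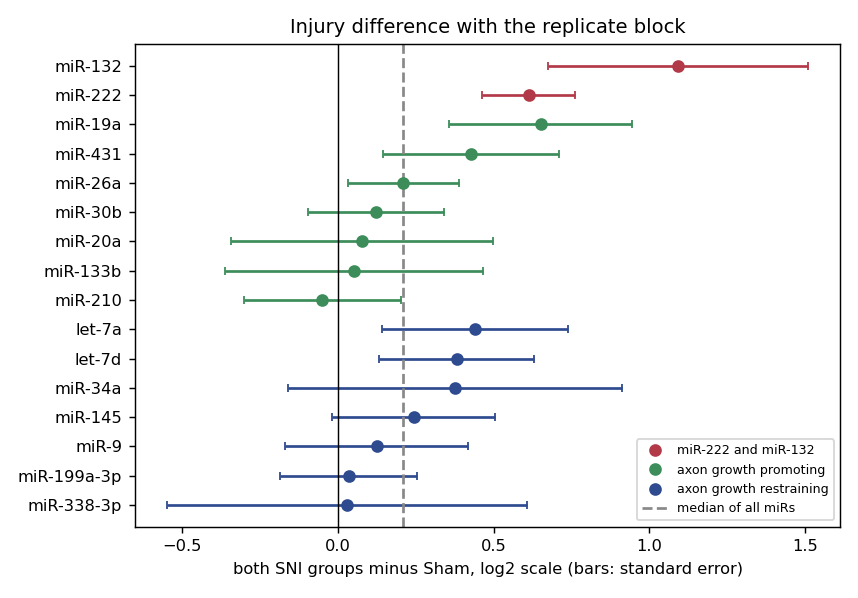
Difference of both SNI groups from Sham with the replicate block, on a log2 scale with standard errors, for miR-132 and miR-222 (red), 7 miRs reported to promote axon growth (green) and 7 reported to restrain it (blue); the dashed line is the median of all 154 miRs, 0.21. MiR-132 at 1.09 lies to the right of all others, and miR-222 at 0.61 is close to miR-19a at 0.65.

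The arrays carry the markers of a sensory ganglion, miR-182 and miR-183, and markers of other cells. All 6 leukocyte miRs analysed here, of 7 listed, were above 0 in both SNI groups against Sham (median 0.25, none with an unadjusted p under 0.05), and their summed level, the log2 of the sum of 2 to the power of −ΔCt, ran from 1.97 to 2.47 in Sham, 2.40 to 2.60 in Sural-SNI and 2.11 to 2.87 in Tibial-SNI. All 4 stromal miRs were above 0 as well (median 0.30), with ranges of −1.17 to 0.57, −1.33 to 0.83 and −0.43 to 1.16 in the 3 groups. Over all 154 miRs, 121 were above 0 in this comparison with a median of 0.21, so these medians are near the general offset. Of the neuronal miRs 5 of 8 were analysed here, 2 of them above and 3 below 0, with ranges of 2.07 to 2.27, 1.47 to 2.22 and 1.61 to 2.76. The part of these cells in the levels of miR-222 and miR-132 was not tested.

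The miRs whose −ΔCt followed that of miR-222 most closely over the 12 arrays were miR-340-5p (Pearson r = 0.88), miR-29a, miR-19a, miR-214 and miR-19b. For miR-132 they were miR-23b (r = 0.98), miR-17, miR-126-5p, miR-195 and miR-652, and 23 miRs had r above 0.9. These points share their reference assays and the gap between replicate numbers. After the mean of each block of level and number was taken away, miR-340-5p was the closest to both, with r = 0.80 for miR-222 and 0.92 for miR-132. For miR-222 it was then followed by miR-17, miR-16, miR-195 and miR-342-3p, and for miR-132 by miR-30e, miR-139-5p, miR-196c and miR-28. MiR-222 and miR-132 had r = 0.75 with each other before and 0.73 after that step. In order of r, miR-222 had rank 54 before and 14 after it for miR-132, and miR-132 rank 12 and 8 for miR-222. The median r over all miRs was 0.55 and 0.36 for miR-132, and 0.44 and 0.28 for miR-222.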

How the data were processed

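The authors used a TaqMan rodent card (A, version 2) with 40 cycles of PCR and deposited raw Ct values of 154 miRs found on every array and of 6 reference wells, 4 of them MammU6. Their deposited linear fold changes of SNI over Sham served as an alternative, and the 4 Sham columns of that table hold no values. Ct values hold no molecule counts, so the number of arrays limits the precision.

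−ΔCt was computed against the mean Ct of MammU6 (wells averaged first), snoRNA135 and U87. Limma 3.58.1 in R 4.3.3 was fitted over all 154 miRs, two-sided, with Benjamini-Hochberg adjustment. The fits were first run on simulated data with an added shift larger than any main difference of miR-222 or miR-132. That run does not measure their power at smaller sizes. The SNI groups were compared with each other on 8 log2(fold change) values, without covariates. The other comparisons used −ΔCt of all 12 arrays, with DRG level as a covariate, surgery as a covariate between levels, or a mean for each of the 6 groups in the interaction. Exact permutation tests were run on each miR. Whether arrays are separate animals is not stated, so p-values measure the spread between these arrays.

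Replicate numbers come from the sample titles. Deviations from the group means correlated across miRs at r = 0.46 to 0.81 in the 12 pairs of 1 level and number, and at −0.70 to −0.56 in the 12 pairs of 1 level and different numbers, so the numbers pair the arrays and the replicate block is given beside the results. The block is the level with the replicate number, but between levels and in the interaction it is the replicate number alone.

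The members, the lists of axon growth and cell type markers, and the rule for other named miRs (the 5 with the highest r, and the listed miRs) were chosen with earlier results of these data known. The lists of endothelial (2 assays), skeletal muscle (4), red blood cell (1) and glial (2) markers were also measured, and none had an unadjusted p under 0.05 against Sham with both SNI groups together. Alternatives were other references, limits on Ct, the replicate block, a variance trend, other tests and leaving out arrays. The plots were drawn with matplotlib 3.10.9 in Python 3.11.15.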

Additional observations from a re-analysis of the deposited data

How the results depend on the processing

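Of 546 values under alternatives, 488 stayed the same. For a difference this means its sign and its side of the threshold, and for a count of called miRs an equal or like count. Neither miR passed the adjusted threshold in a main fit, so that keeping the side of the threshold meant staying uncalled. In both SNI groups against Sham, miR-222 (0.61) passed only in the exact permutation test (unadjusted p = 0.0311) and in a one-sample test (adjusted p = 0.0342). The latter set the 4 mean log2(fold change) values against 0. Each of these is a difference from the Sham array of 1 level and replicate number, so that test is paired. The adjusted p of miR-222 otherwise ran from 0.332 to 1.000. That one-sample test called 2 miRs there and 1 in each SNI group, in place of 0. The 1 miR called between Tibial-SNI and Sural-SNI became 0 in 12 settings, the replicate block among them, and when any 1 array was left out. MiR-222 reversed between Tibial-SNI and Sural-SNI with MammU6 alone (−0.027) and within replicate 2 (−0.016), and in the interaction with snoRNA135 alone (0.13), snoRNA135 with U87 (0.025) and the mean of all miRs (0.35). MiR-132 reversed between the levels within replicate 2 (−0.080).

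Leaving out 1 array gave, for miR-222, 0.50 to 0.73 in both SNI groups against Sham, 0.093 to 0.31 between levels, 0.040 to 0.18 between SNI groups and −0.36 to 0.26 in the interaction. For miR-132 it gave −0.14 to 2.21, −0.64 to 0.93, −0.038 to 0.94 and −3.60 to 2.65, and −0.42 to 1.93 in Sural-SNI and 0.14 to 2.49 in Tibial-SNI against Sham. With the replicate block, and 1 array left out, both stayed above 0 in the 3 comparisons with Sham, and Tibial-SNI against Sham had 0 to 1 miRs called, the 1 without L4-DRG Sham replicate 1. The replicate block changed no call of miR-222 or miR-132 at the adjusted threshold. The fits within 1 replicate number, and those with the block and 1 array left out, were chosen after seeing the data. A limit of 32 cycles removed miR-132. With the study's one-tailed unpaired test, p was 0.0926 for miR-222 and 0.262 for miR-132, against its threshold of 0.09.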
